A study of Mus musculus with 30 samples.

Results

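Mt1 and Mt2 are the metallothionein genes followed here through the livers of 30 mice given PPAR-alpha agonists or vehicle. Each is read by 1 probe set of the Affymetrix MG_U74Av2 array, 93573_AT for Mt1 and 101561_AT for Mt2. These 2 members were picked out of 12488 probe sets by ID, with no threshold on any measured value, and both passed the filter on dim probe sets. The deposited table lists IDs alone, so the pairing of each ID with its gene comes from the selection rule and was not checked against an annotation.

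Metallothioneins are small cysteine-rich proteins that bind zinc, copper and cadmium. In liver they buffer zinc, and their transcription is known to rise with metals, glucocorticoids, inflammation and fasting. Metal control acts through the transcription factor MTF1, which binds metal response elements in their promoters. Mt1 and Mt2 are neighbours on mouse chromosome 8 and are commonly found to be induced together. In GRCm38.p6, Mt2 lies at chr8:94172618-94173567 and Mt1 at chr8:94178883-94180327, with 5315 bases between them.

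The control sequence that both genes are known to share is shown because the question here is whether they moved together. RefSeq promoter windows (GRCm38.p6, 250 bases before to 50 after an annotated start, matched for both genes) were searched on both strands for the metal response element core. Its letters were TGCACNC or TGCGCNC. The Mt2 window is set on the start of the gene span above, but the Mt1 window is set on position 94179089, inside the Mt1 span, so most of it lies within that span and it may not be the window of every Mt1 transcript. The Mt1 window held 3 such cores and the Mt2 window 4. At least 1 core was found in 25.7% of the 32851 mouse windows, at least 3 in 1.97% and at least 4 in 0.517%. Stretches of 30 bases with cores near the start used for each window are given 5′ to 3′ on the plus strand, with the cores in capitals. They are Mt1 at chr8:94179055-94179084 and chr8:94179089-94179118, and Mt2 at chr8:94172557-94172586 and chr8:94172611-94172640, where the capitals read as a core on the minus strand.
Mt1, first stretch: cggtcccgctgTGCACACtggcgctccagg
Mt1, second stretch: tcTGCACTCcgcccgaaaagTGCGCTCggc
Mt2, first stretch: ggggggagggcGTGTGCAggctctgtccca
Mt2, second stretch: gaattcgggtcGTGCGCAggcccaggggcg
These matches describe letters only.

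The mice were male C57Bl/6 animals dosed daily at 1 mg/kg with CP-775146, CP-868388 or CP-865520, while the vehicle groups received water; livers were taken after 24 h or 5 days. The compounds are piperidine agonists of PPAR-alpha, the nuclear receptor behind much of the liver's fat-burning gene programme, and no genetic change is named for any group. Each of the 8 groups held 4 arrays, 1 per mouse, except CP-775146 at 5 days with 2, and the mice's age and the route are not in the labels. The values are linear intensities with a floor of 50. Array means lay between 314 and 318, and 5600 to 6741 probe sets per array stood above the floor. RNA integrity, read from the Gapdh control probe sets as log2 of 5′ over 3′ signal, was under -0.4 on 3 arrays, all of them 24 h compound arrays. Precision is limited by how many arrays each group has, and each array is taken as a separate mouse because the design text counts mice. Whether transcripts of one metallothionein also bind the probes of the other was not tested.

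Mt2 was measured above the floor on all 30 arrays, at 176 to 367 with a median of 239.5. Its highest group was vehicle at 5 days, at 332.5 ± 27.4 (SD, n = 4). CP-865520 at 24 h followed at 261 ± 49.3, then CP-868388 at 5 days at 251 ± 47.3, CP-775146 at 5 days at 247.5 ± 6.36 (SD, n = 2) and CP-865520 at 5 days at 244 ± 15.5. The lowest were CP-868388 at 24 h at 220 ± 42.4, CP-775146 at 24 h at 216 ± 14.0 and vehicle at 24 h at 207 ± 17.1 (SD, n = 4 where not stated). Of the 7 steps between neighbours in this order, only that from vehicle at 5 days to the next group, 71.2, was larger than the greater SD of the pair.

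Mt1 was dim, with 6 of 30 arrays at the floor and the others reaching 275, around a median of 93. Its highest group was again vehicle at 5 days, at 174 ± 88.3 (SD, n = 4). Vehicle and CP-775146 at 24 h both averaged 132, with SDs of 99.6 and 42.6. CP-865520 at 24 h stood at 125 ± 34.6, CP-868388 at 5 days at 124 ± 67.8 and CP-775146 at 5 days at 115 ± 91.9 (SD, n = 2). CP-868388 at 24 h was at 72.2 ± 17.4 and CP-865520 at 5 days was lowest at 60.5 ± 12.2. No step between neighbours in this order was larger than the greater SD of the pair, and a group mean that includes arrays at the floor is an upper bound.

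**Figure D1:**
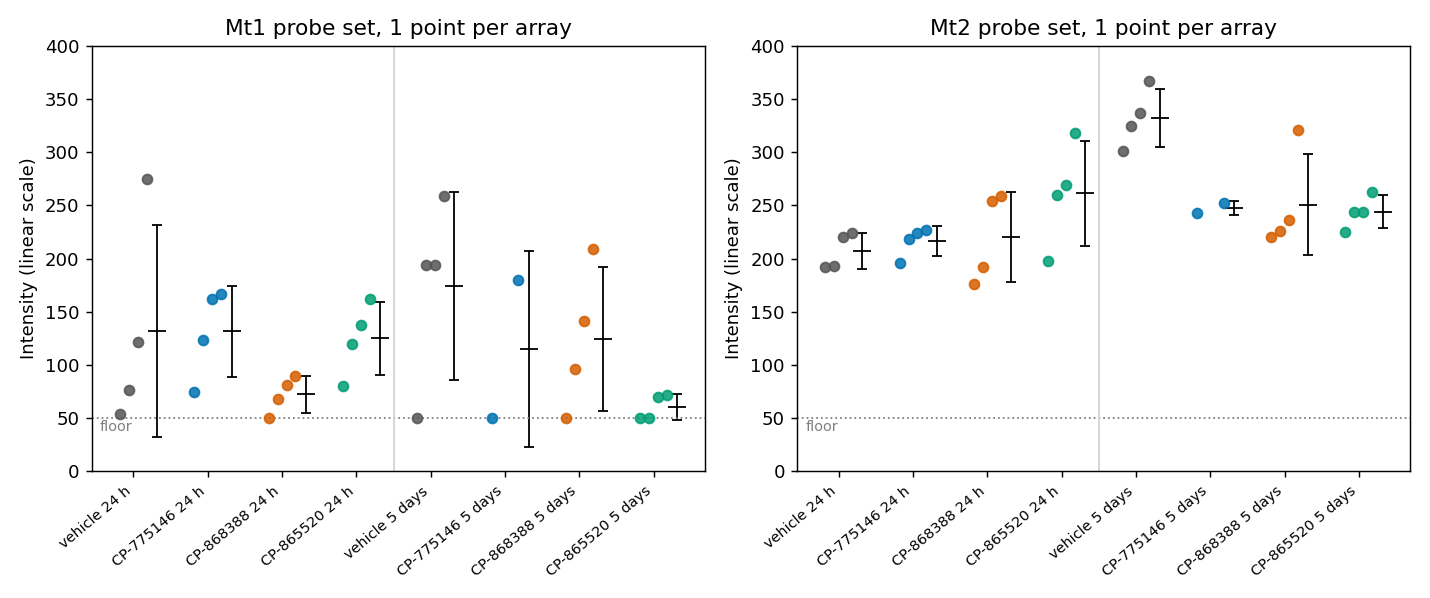
Linear intensity of the Mt1 (left) and Mt2 (right) probe sets in each of the 8 groups, with 1 point per array, the group mean ± SD as a bar beside the points and the floor of 50 dotted. Mt2 in vehicle livers at 5 days (301 to 367) lies above all vehicle livers at 24 h (192 to 224), while Mt1 runs from 50 or 54 to 259 or 275 within each vehicle group.

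At 24 h, neither metallothionein passed the test against vehicle under any of the 3 agonists. Mt2 read 192, 220, 193 and 224 in the vehicle livers. Under CP-775146 it read 196, 227, 224 and 218, and under CP-868388 259, 192, 176 and 254, so that both groups overlapped vehicle. Its log2 differences from vehicle, on the log2(intensity + 50) scale used throughout, were 0.05 ± 0.12 (SE) and 0.06 ± 0.12, with adjusted p = 0.909 and 0.789. In these comparisons 20.0% and 40.6% of the 7963 tested probe sets were called, that is, had an adjusted p under 0.05 by limma with Benjamini-Hochberg adjustment. With a covariate for RNA integrity, built from the 5′ over 3′ ratios of control probe sets, the count for CP-868388 was 1538 in place of 3234. Scaling moved the Mt2 values, to 0.13 and 0.27 after quantile normalization (limma adjusted p = 0.521 and 0.0581) and to 0.09 and 0.21 when each array was centred on features that never touched the floor (0.68 and 0.124).

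Under CP-865520 at 24 h, Mt2 read 198, 318, 260 and 269, of which 3 arrays lay above every vehicle array. The log2 difference was 0.26 ± 0.12 (SE), with limma adjusted p = 0.115, in a comparison where 20.3% of probe sets were called. Without CP-865520 replicate 1, the array at 198, it was 0.37 with an limma adjusted p = 0.0254.

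Mt1 at 24 h read 122, 76, 54 and 275 under vehicle, a 5.09-fold range among mice that received water alone. It read 123, 167, 75 and 162 under CP-775146, then 68, 90, 50 and 81 under CP-868388, and 120, 138, 162 and 80 under CP-865520. All 3 compound groups lay within the range of the vehicle livers, apart from the CP-868388 array at the floor. The log2 differences were 0.11, -0.44 and 0.07 with an SE of 0.34 each, and limma adjusted p = 0.957, 0.351 and 0.964. Their 95% intervals ran from -0.59 to 0.81, from -1.14 to 0.26 and from -0.63 to 0.76. CP-868388 at 24 h also had the lowest Gapdh 5′ to 3′ ratio, -0.36 ± 0.23 against 0.02 ± 0.11 under vehicle (SD, n = 4 each). With an integrity covariate its Mt1 difference was -0.04, and without the 3 arrays of low Gapdh ratio it was -0.28. The part of RNA integrity in the lower reading was not tested further.

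Vehicle livers themselves differed in Mt2 between the times. Mt2 read 367, 337, 301 and 325 at 5 days, all above the 192 to 224 at 24 h. The mean was 1.60 times higher, and the log2 difference was 0.57 ± 0.12 (SE, 95% interval 0.33 to 0.81, limma adjusted p = 0.00124). In this comparison 22.7% of probe sets were called, 11.2% were called higher at 5 days, and the arrays did not overlap in 21.7%. Of all tested probe sets 94.3% had a smaller absolute difference. The call was kept in all 42 alternatives, with values from 0.49 to 0.68. Mt1 in the same livers read 259, 50, 194 and 194, and its log2 difference of 0.33 ± 0.34 (SE) did not pass (limma adjusted p = 0.511). The labels name no date or batch, so the length of dosing cannot be told apart from any other difference between the 24 h and 5-day sets. In whole liver, fewer cells of a type and less RNA per cell cannot be told apart either.

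After 5 days Mt2 was lower under each agonist than under vehicle. CP-775146 livers read 252 and 243, CP-868388 livers 321, 226, 236 and 220, and CP-865520 livers 244, 263, 244 and 225. The first and the last group lay wholly below the vehicle arrays, and CP-868388 overlapped them through its array at 321. As ratios of mean intensity to vehicle, Mt2 stood at 0.744, 0.754 and 0.734. These compound livers, at 220 to 321, overlapped the upper end of the vehicle livers of 24 h, at 192 to 224, and were not tested against them.

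The Mt2 log2 differences at 5 days were -0.36 ± 0.14, -0.36 ± 0.12 and -0.38 ± 0.12 (SE), with limma adjusted p = 0.0479, 0.0166 and 0.0100. All 3 comparisons share the 4 vehicle arrays. In the same comparisons 37.1%, 37.8% and 42.1% of probe sets were called, 24.8%, 23.8% and 26.8% were called lower, and 43.7%, 29.8% and 33.9% did not overlap. The differences were of common size, since 60.6%, 66.7% and 65.7% of tested probe sets had a smaller absolute change. The median over all tested probe sets was -0.11, -0.07 and -0.08, and 0.07, 0.01 and 0.04 after the same centring. With that centring the Mt2 differences were -0.18, -0.28 and -0.26 and no call was kept (limma adjusted p = 0.321, 0.0631 and 0.0664).

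The CP-775146 call on Mt2 lay at the threshold and was lost in 26 of 42 alternatives. Without CP-775146 replicate 1 or 2 its log2 difference was -0.38 or -0.34 (limma adjusted p = 0.123 and 0.21), with the lone array assumed to vary like the other groups. Without vehicle replicate 1, 2 or 4 of 5 days it was -0.32, -0.35 or -0.37 (0.104, 0.0735 and 0.065). It was also lost when any of 16 arrays from groups outside the comparison was left out, at adjusted p from 0.0505 to 0.0539, where the difference itself did not move. The CP-868388 call was lost without its replicate 2 or 4 (-0.32 and -0.31, limma adjusted p = 0.0512 and 0.0546) or without vehicle replicate 1 (-0.31, 0.0549). The CP-865520 call was lost in 1 of 42 alternatives, the centring above.

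Mt1 after 5 days was called only under CP-865520, where its livers read 72, 50, 50 and 70. The vehicle livers read 259, 194 and 194, with replicate 2 at the floor, so the groups overlapped through that array. The ratio of means was 0.347, and the log2 difference was -0.91 ± 0.34 (SE, 95% interval -1.61 to -0.22, limma adjusted p = 0.0321). With 2 of 4 arrays at the floor under CP-865520 and 1 of 4 under vehicle, both means are upper bounds. The call stands in a comparison where 42.1% of probe sets were called and 26.8% were called lower. CP-775146 livers read 180 and 50, and CP-868388 livers 141, 50, 209 and 96, both spread over most of the vehicle range. Their log2 differences were -0.45 ± 0.42 and -0.34 ± 0.34 (SE), with limma adjusted p = 0.419 and 0.464.

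The Mt1 call under CP-865520 was lost in 9 of 42 alternatives. It was lost without CP-865520 replicate 2 or 3 of 5 days (-0.87 each, limma adjusted p = 0.0654 and 0.0676) and without vehicle replicate 1, 3 or 4 (-0.72, -0.83 and -0.83, 0.115, 0.0744 and 0.0811). Without vehicle replicate 2, the array at the floor, the difference was -1.26 (limma adjusted p = 0.0031). The Gapdh 5′ to 3′ log2 ratio was -0.10 ± 0.14 under CP-865520 and 0.03 ± 0.04 under vehicle at 5 days (SD, n = 4 each), and with the integrity covariate the difference was -0.70 (limma adjusted p = 0.142). By exact two-sided permutation tests on single comparisons, adjusted over 14 tests, no member passed, and with so few arrays a pass was hardly possible. The smallest exact p were 0.0286 for Mt2 under CP-865520 at 5 days and between the vehicle groups, which is the smallest that 4 arrays against 4 allow, and both adjusted to 0.2. For 2 arrays against 4 the smallest possible exact p is 0.133.

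**Figure D2:**
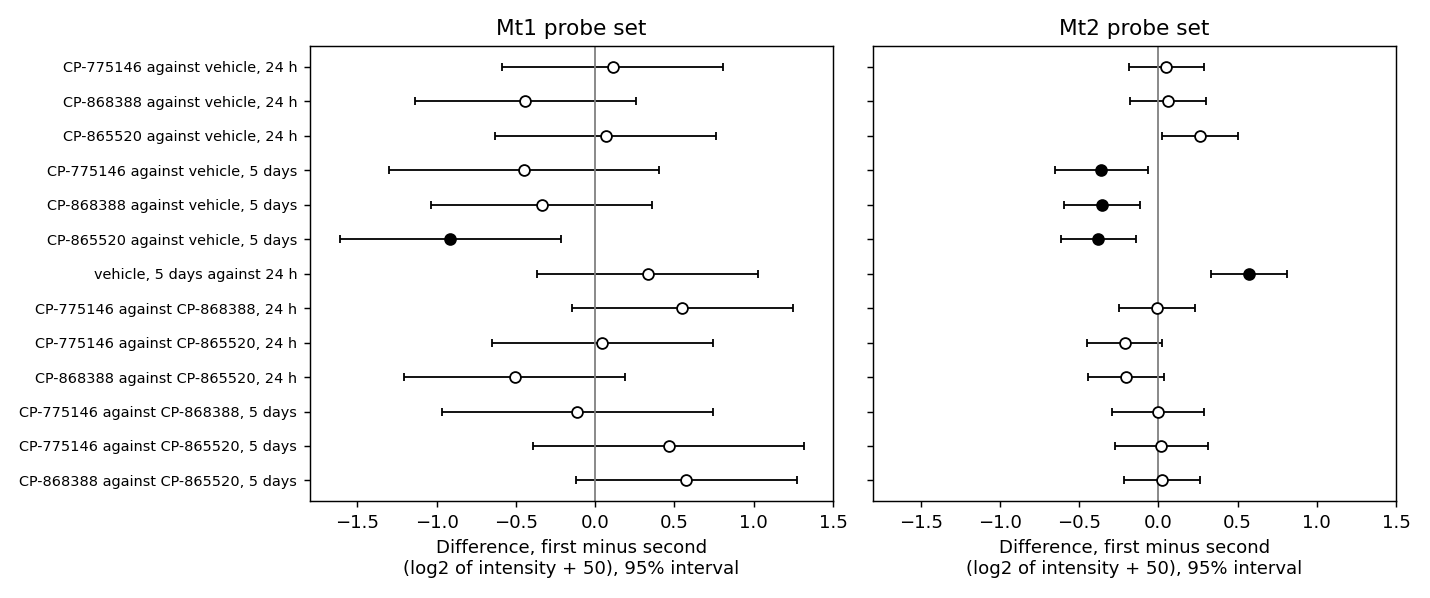
Differences of the Mt1 (left) and Mt2 (right) probe sets on the log2(intensity + 50) scale with 95% intervals from limma, for each compound against vehicle, vehicle between times, and each pair of compounds. Filled points passed an adjusted p of 0.05; they are Mt2 in the 3 comparisons with vehicle at 5 days and between vehicle groups, and Mt1 under CP-865520 at 5 days.

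Whether a response changed from 24 h to 5 days was tested as an interaction, in which the vehicle groups of both times enter. For Mt2 under CP-865520 the response went from 0.26 at 24 h to -0.38 at 5 days, a change of -0.64 ± 0.16 (SE, limma adjusted p = 0.0102). In that comparison 17.3% of probe sets were called and 9.97% were called lower, and the call was kept in all 42 alternatives. The mean intensity under CP-865520 was 261 at 24 h and 244 at 5 days, while that of vehicle went from 207 to 332.5. For CP-775146 and CP-868388 the changes of the Mt2 response were -0.41 ± 0.18 and -0.42 ± 0.16 (SE), with limma adjusted p = 0.188 and 0.167, where 4.81% and 3.54% of probe sets were called. Under CP-868388 it passed after quantile normalization (-0.56, limma adjusted p = 0.0388). For Mt1 the changes were -0.56, 0.10 and -0.98 under CP-775146, CP-868388 and CP-865520, with limma adjusted p = 0.567, 0.94 and 0.159. The last passed without vehicle replicate 2 of 5 days (-1.33, limma adjusted p = 0.0459).

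The 3 compounds were compared with each other at the same dose and time, in 6 pairs for each member. No pair passed for Mt1 or Mt2, either over all probe sets or with p-values adjusted over the 6 pairs, where the lowest were 0.295 for Mt1 and 0.274 for Mt2. At 24 h the called shares over all probe sets were 16.4% between CP-775146 and CP-868388, 0.100% between CP-775146 and CP-865520 and 27.9% between CP-868388 and CP-865520. At 5 days they were 0.0753%, 0.0251% and 0.0628%. The 24 h counts of CP-868388 against CP-775146 and CP-865520 were 1304 and 2223. They were 6 and 521 with the integrity covariate and 38 and 620 without the 3 arrays of low Gapdh ratio. Leaving out CP-775146 replicate 2, 3 or 4 of 24 h also changed the first count, to 821, 738 or 824, and leaving out replicate 1 gave 1373. Without CP-868388 replicate 1, 2, 3 or 4 of 24 h the first count was 846, 1270, 462 or 1592. The second count was then 1930, 1952, 1195 or 2345. CP-868388 replicates 1 and 3 are among the 3 arrays of low Gapdh ratio. No array was left out of the fit with the integrity covariate, so its group sizes were those of the main fit. Without the 3 arrays of low Gapdh ratio the groups were also smaller. What part group size and RNA integrity each had in these counts was not tested.

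For Mt2 the intervals between compounds were narrower than for Mt1 at both times. At 5 days CP-868388 over CP-865520 was 1.02 on the scale of intensity + 50 (95% interval 0.861 to 1.20). CP-775146 over CP-868388 was 0.998 (0.815 to 1.22) and CP-775146 over CP-865520 was 1.01 (0.827 to 1.24). At 24 h CP-775146 over CP-865520 was 0.863 (0.732 to 1.02), CP-868388 over CP-865520 was 0.869 (0.736 to 1.02) and CP-775146 over CP-868388 was 0.993 (0.842 to 1.17). The log2 difference of CP-868388 from CP-865520 at 24 h, -0.20, was -0.03 after quantile normalization and -0.06 after centring. For Mt1 they were wide. CP-775146 over CP-868388 at 24 h was 1.46 (0.903 to 2.37), and CP-868388 over CP-865520 at 5 days was 1.49 (0.919 to 2.42). A pair that misses the threshold does not show that the compounds act alike.

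Across the 30 livers the Mt1 and Mt2 readings were only weakly correlated. With 6 of 30 Mt1 values at the floor, this does not show how closely the transcripts themselves vary together. On the log2 scale Pearson's r was 0.30 (permutation p = 0.11) and Spearman's rho was 0.18 (permutation p = 0.334). Without the 2 arrays farthest from the Mt1 median, vehicle livers at 275 and 259, r was 0.23. Because vehicle at 5 days was the highest group for both members, the relation was also taken on deviations from group means, where r was 0.19 (permutation p = 0.308, values permuted within groups) and rho 0.19 (0.337). In 17 of 30 livers both members lay on the same side of their group mean and in 13 they lay on opposite sides. At 24 h r was 0.21 over 16 arrays (permutation p = 0.439) and at 5 days 0.47 over 14 arrays (permutation p = 0.0903), and on deviations 0.20 and 0.19. Over the 9 relations computed, the lowest Benjamini-Hochberg adjusted p was 0.493. Leaving out 1 array at a time moved the pooled r from 0.18, without vehicle replicate 1 of 5 days (permutation p = 0.36), to 0.41, without vehicle replicate 2 of 5 days (permutation p = 0.0282).

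Vehicle replicate 2 at 5 days read 50 for Mt1 and 337 for Mt2. The other 3 livers of its group read 194 to 259 and 301 to 367. Vehicle replicate 4 at 24 h had the highest Mt1 value of the series, 275, and its Mt2 of 224 was also the highest of its group, against 192 to 220 in the rest. Its log2 deviations from the group means were 0.98 for Mt1 and 0.093 for Mt2. Of all tested probe sets, 76.9% correlated less with Mt1 than Mt2 did over the 30 arrays, and 74.6% correlated less with Mt2 than Mt1 did.

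**Figure D3:**
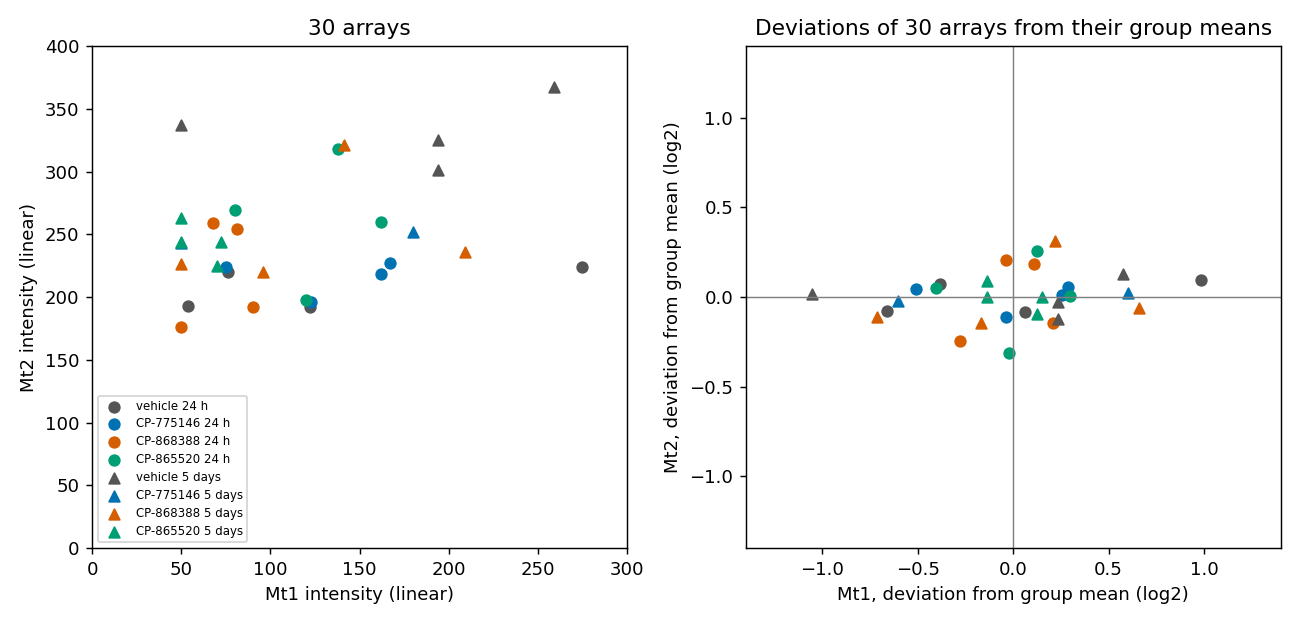
Mt2 against Mt1 in 30 livers as linear intensities (left), with compounds by colour and times by symbol, and the deviations of the same arrays from their group means on the log2 scale (right). The deviations spread widely along the Mt1 axis and little along the Mt2 axis, with r = 0.19.

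The spread within groups set the 2 probe sets apart. With 1 array per mouse, variation between mice cannot be told apart from variation of the measurement, and Mt1 was dim. The SD between mice of a group, read from 1 array each and pooled over the 8 groups on the log2 scale, was 0.51 for Mt1. That was more than in 99.4% of the 7963 tested probe sets. Among the 500 probe sets closest to it in mean, 99.2% had a smaller SD and the median SD was 0.20. For Mt2 the SD was 0.16, and 26.6% of the 500 probe sets closest in mean had a smaller one, with a median of 0.19. Group membership accounted for 30.2% of the sum of squares of Mt1 and 61.8% of that of Mt2, against a median of 56.5% over all tested probe sets. The spread of Mt1 was itself uneven, with log2 SDs of 0.72 in each vehicle group and 0.16 under CP-865520 at 5 days, where 2 of 4 arrays were at the floor.

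**Figure D4:**
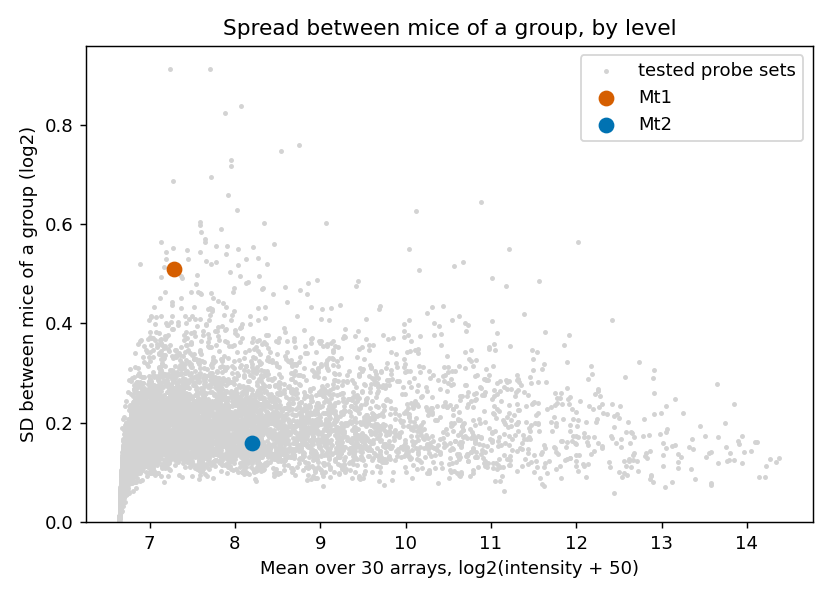
SD between mice of a group, read from 1 array each, against the mean over 30 arrays, both on the log2(intensity + 50) scale, with 1 grey point for each tested probe set. Mt1 lies near the upper edge of the cloud at 0.51 and Mt2 inside it at 0.16.

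The probe sets whose pattern was most like each member were found by Pearson's r, and are given by ID because no gene name is paired with them. For Mt1 over the 30 arrays it was 93481_AT, with r = 0.67, and on deviations from group means 101371_AT, with r = 0.66. The latter was at the floor on 3 arrays, and Mt1 was at the floor on all 3 of them. In vehicle replicate 2 at 5 days both 93481_AT and 101371_AT read 50, against 149 to 247 and 115 to 175 in the other livers of that group. For Mt2 the closest over the 30 arrays was 161446_R_AT, with r = 0.82. It was also highest in vehicle at 5 days, at 1310 ± 93.6 against 862 ± 17.2 in vehicle at 24 h (SD, n = 4 each). On deviations it was 98418_AT, with r = 0.71. These were picked as the highest correlations, which therefore carry no test.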

How the data were processed

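Liver RNA of 30 mice was measured on 30 arrays, 1 biotin-labelled array per liver, and grouped by the sample titles. The authors deposited linear intensities, and the submitters' processing notes name MAS5. How the arrays were scaled, and which step raised low values to the floor of 50, is not given in those notes. Of the deposited values 50.3% were at the floor. Scaling and floor bear most on dim probe sets such as Mt1.

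Intensities were analysed as log2(value + 50). After removal of 66 controls, 7963 probe sets that exceeded 50 (also the overall median) on 2 or more arrays were kept. Group means were fitted to all 30 arrays with limma 3.58.1 in R 4.3.3 (lmFit, eBayes with an intensity trend), two-sided, with Benjamini-Hochberg adjustment over all tested probe sets. Differences on this scale understate changes of dim probe sets. The fit was also run on known changes in arrays simulated from normal distributions with the real means and spreads, and its outcome is not used here. Permutation tests used scipy 1.17.1 in Python 3.11.15, with 100000 resamples for correlations.

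Replicate numbers recur across groups. Deviations of same-numbered arrays had a median correlation of -0.0055 over 98 pairs, from -0.37 to 0.44, and 16 pairs were over 0.1. Differently numbered pairs were not counted for comparison. The labels tie no number to a litter or day. Within groups, arrays correlated at 0.968 to 0.990 and none was a copy of another. Alternatives changed the offset, filter, scaling, spread model, block, integrity covariate and arrays used. Named probe sets are the members and, for each, the most correlated probe set over arrays and over deviations from group means. Planned gene lists, liver markers and markers of other cell types need gene symbols and were not applied. The rule for the members uses no measured value, but the metallothioneins and the lists were proposed with earlier results of these data known.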

Additional observations from a re-analysis of the deposited data

Results flagged for a closer look

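Mt2 under CP-868388 at 5 days had 1 array apart from the rest of its group. Replicate 1 read 321, against 220 to 236 in the other 3. Chance marks about 1 in 20 groups in this way. Without that array the log2 difference from vehicle was -0.46.

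The Mt2 response to CP-865520 differed between the times by an interaction test, at -0.64 ± 0.16 (SE, log2, limma adjusted p = 0.0102), from 0.26 at 24 h to -0.38 at 5 days.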

How the results depend on the processing

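Each comparison was refitted under 42 alternatives, 30 of which left out 1 array; where a call or direction changed, the cause was not tested beyond what is said here. The Mt2 difference between vehicle groups and the Mt2 response to CP-865520 kept their calls throughout. With a pseudocount of 1, Mt2 under CP-775146 at 5 days was -0.42 (log2) and not called. Without the filter, which tests more probe sets, that Mt2 value (-0.36) and Mt1 under CP-865520 at 5 days (-0.91) were not called. After quantile normalization they were -0.21 and -0.80, neither called, while the change of the Mt2 response to CP-868388 was called at -0.56. After centring, Mt2 under CP-775146, CP-868388 and CP-865520 at 5 days was -0.18, -0.28 and -0.26, none called. With the integrity covariate Mt2 under CP-775146 at 5 days (-0.36) and Mt1 under CP-865520 at 5 days (-0.70) were not called. When other groups were dropped from the fit, Mt2 under CP-868388 (-0.36) and Mt1 under CP-865520 (-0.91) at 5 days were not called.

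Uncalled values that changed sign were Mt2 between CP-775146 and CP-868388 at 5 days (0.087 after quantile normalization, 0.096 after centring) and Mt2 between CP-868388 and CP-865520 at 5 days (-0.0086 and -0.013). The change of the Mt1 response to CP-868388 was -0.25 under the integrity covariate and -0.057 once the 3 arrays of low Gapdh ratio were dropped, where at 24 h the Mt1 difference of CP-775146 from CP-865520 was -0.091. By replicate number, 5 of 30 arrays correlated best with their own number. No reference count was computed, so this does not show whether same-numbered arrays were paired. With the replicate block no call changed: Mt2 under CP-775146 at 5 days was -0.39 (limma adjusted p = 0.0480), and only the uncalled Mt2 difference between CP-775146 and CP-865520 at 5 days changed sign, to -0.0087.

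Leaving out 1 array at a time moved the Mt1 to Mt2 correlation from 0.18 to 0.41. For Mt1 against vehicle at 24 h the range was -0.11 to 0.44 under CP-775146 and -0.15 to 0.39 under CP-865520, and at 5 days -1.05 to 0.15 and -1.26 to -0.72. Under CP-868388 it was -0.66 to -0.11 at 24 h and -0.69 to -0.10 at 5 days, and between vehicle groups 0.11 to 0.68, none called. Between compounds Mt1 ran from -0.091 to 0.21 (CP-775146 and CP-865520, 24 h), from -0.14 to 1.06 (the same, 5 days) and from -0.71 to 0.49 (CP-775146 and CP-868388, 5 days). Its response changes ran from -1.16 to 0.041 (CP-775146), from -0.25 to 0.34 (CP-868388) and from -1.33 to -0.76 (CP-865520). For Mt2 against vehicle the ranges were -0.0090 to 0.14 (CP-868388, 24 h), 0.18 to 0.37 (CP-865520, 24 h), -0.40 to -0.32 (CP-775146, 5 days) and -0.46 to -0.31 (CP-868388, 5 days). Between compounds Mt2 ran from -0.091 to 0.059 (CP-775146 and CP-868388, 24 h) and at 5 days from -0.051 to 0.10 (the same), from -0.013 to 0.049 (CP-775146 and CP-865520) and from -0.083 to 0.070 (CP-868388 and CP-865520). Counts of calls over all probe sets that moved by over 1.5 times with the integrity covariate also include the responses to CP-775146 (383 to 600) and CP-868388 (282 to 99). The counts of 2 to 8 between compounds at 5 days, and for CP-775146 against CP-865520 at 24 h, moved by as much under many settings. Without vehicle replicate 2 of 5 days the count between vehicle groups went from 1807 to 1179, and without CP-775146 replicate 2 of 5 days that of CP-775146 at 5 days from 2958 to 1686. The floor limits what Mt1 can show, since 6 of its 30 values are upper bounds.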
